A study of Quercus suber with 11 samples.

Results

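The cork oak homologs of 9 Arabidopsis ABCG transporters were examined: ABCG1, ABCG2, ABCG6, ABCG11, ABCG12, ABCG13, ABCG16, ABCG20 and ABCG32. A homolog was any locus whose most similar Arabidopsis gene, as annotated in the deposited values, was one of these 9. Of the 32024 loci, 9 were found. They belonged to 5 of the 9 transporters. ABCG11 (AT1G17840) had 5 loci, while ABCG1 (AT2G39350), ABCG2 (AT2G37360), ABCG16 (AT3G55090) and ABCG32 (AT2G26910) had 1 each. ABCG6 (AT5G13580), ABCG12 (AT1G51500), ABCG13 (AT1G51460) and ABCG20 (AT3G53510) were the most similar gene of no locus. The minimum level for testing, a mean over the trees of at least log2 of 10, was reached by 6 of the 9 loci, 2 of them ABCG11 loci.

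Innercork, which is young living phellem with adhering phellogen, the meristem that makes cork, was taken from virgin cork of forest-grown Quercus suber. RNA was sequenced from 4 April, 3 June and 4 July trees, and each of the 11 was sampled once, so that a month was also a set of trees. No tree was treated, and the months stand for the beginning, the maximum and an advanced stage of the cork growing season. The values are regularized log (rlog) values: read counts scaled per library, on the log2 scale, with the values of loci with few reads drawn toward their mean.

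ABC transporters use ATP to move substrates across membranes, and plant members of the G subfamily carry many of the lipids that form cutin, wax, suberin and the pollen wall. Half-size members must pair with a partner to work, whereas full-size members hold both parts in a single chain. In Arabidopsis, ABCG2, ABCG6 and ABCG20 are needed for the suberin barriers of root and seed coat and ABCG1 exports suberin precursors in the root. ABCG11 acts in cutin and wax export and also in suberin, ABCG32 is a full-size transporter of cutin precursors, and ABCG1 and ABCG16 take part in building the pollen wall. ABCG32 was the full-size member here, and the other 8 were half-size. Suberin fills the wall of phellem cells, and its monomers are made inside the cell and exported.

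The depth in reads of each tree was not known here, so precision was judged by how far trees of 1 month differed. The median residual SD was 0.302 over the 22426 loci tested. April replicate 2 and July replicate 4 stood apart. For correlations with the other trees of a month, the rlog values of each locus were first centred on their mean over all trees. Such correlations compare deviations from that mean and not whole expression profiles, so values near 0 do not mean unrelated profiles. Over all loci tested, April replicate 2 had a mean correlation of 0.00248 with its month, against 0.151 to 0.258 for the remaining April trees. The June trees had 0.0389 to 0.0836, July replicates 1 to 3 had 0.0221 to 0.0270, and July replicate 4 had the lowest value, -0.0674. Ribosomal RNA loci made up 14.7% of the summed linear values in July replicate 4, against 1.98 to 9.26% in the other 10 trees. Suberin synthesis homologs had a locus for 10 of 12 genes and summed to between 871096 and 1847260 on the linear scale (2 to the power of rlog), so that defining genes of suberizing tissue were present at high level. Markers of other tissues were present at lower levels. The xylem list (6 of 7 genes with a locus, none for XCP2) summed to 1703 to 3506 in April, 4400 to 7150 in June and 3637 to 23638 in July, and the cambium list (4 of 4 genes, PXY below the minimum level) to 13938 to 21393, 6900 to 7980 and 6364 to 14047. The phloem list (2 of 4 genes, with none for APL and SEOR2) summed to 4909 to 13313, 19050 to 30285 and 5809 to 28234. The green tissue list (3 of 6 genes, with none for LHCB1.1, PSBO1 and RBCS1A) did not exceed 24.3. LHCB2.1 and LHCA1 were below the minimum level, so that only 1 gene of this list, LHCB3, was tested. The part of these other cell types in the differences below was not tested. In such bulk tissue, fewer cells of a type and less RNA per cell cannot be told apart.

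Differences between months were tested with limma on all 11 trees, with the month as factor, and p-values were adjusted by Benjamini-Hochberg over all 22426 loci. A locus was called when its adjusted p did not exceed 0.01 and its absolute log2FC exceeded 1, log2FC being the difference between the rlog means of 2 months. None of the 6 ABCG homologs was called in June/April, where 1.46% of all loci tested were called. Nor was any called in July/April (2.04% of all loci tested) or July/June (0.00446%). At an unadjusted p under 0.05 there were 2 of 6 in June/April (28.3% of all loci tested), 0 for July against April (30.0%) and 2 for July against June (8.93%). The mean was higher in June than in April for all 6 homologs (48.0% of all loci tested), higher in July than in April for 3 (48.5%) and higher in July than in June for 1 (50.0%). Their median log2FC was 0.65 for June against April, -0.02 for July against April and -0.77 for July against June, beside medians of -0.02, -0.02 and -0.00 over all loci tested. These 3 comparisons share trees with one another. Of the June/April values of the 6 homologs, the smallest was 0.01, for ABCG11 (LOC112029276). The shares over all loci tested were not matched for level. By mean rlog ABCG2, ABCG32 and ABCG1 ranked 15th, 169th and 226th of the loci tested. On the linear scale 5 of the 6 had their maximum in June and 1 in July, whereas over all loci tested the maximum fell in June for 29.0%, in April for 42.5% and in July for 28.4%.

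**Figure D1:**
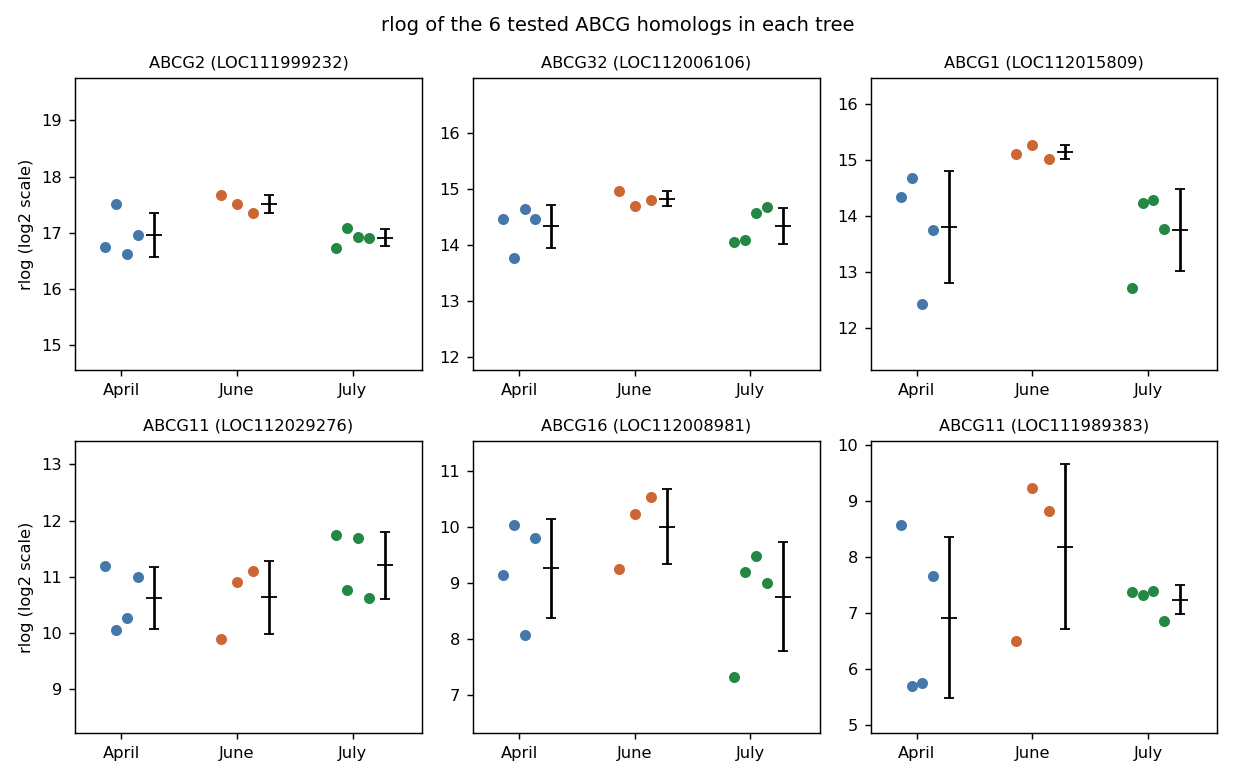
rlog values (log2 scale) of the 6 tested ABCG homologs, 1 panel each, in the 4 April, 3 June and 4 July trees (points), with the month mean and SD beside them (bars); all panels span the same number of log2 units around their own middle. The 3 June trees of ABCG1 and of ABCG32 lie above all April and July trees, and the points of ABCG11 (LOC111989383) run from 5.70 to 9.23.

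ABCG2 (LOC111999232), the homolog of a root and seed coat suberin transporter, was the 15th of the 22426 loci tested by mean rlog, at 17.09. This order is not corrected for gene length, and no length per transcript was used here. The April trees had rlog values of 16.75, 17.51, 16.63 and 16.95, the June trees 17.67, 17.50 and 17.35, and the July trees 16.73, 17.09, 16.92 and 16.90. April replicate 2 lay among the June trees, while all July trees were below all June trees. June exceeded April by a log2FC of 0.55, or 1.46-fold (SE 0.23, 95% interval 0.04 to 1.06, limma, Benjamini-Hochberg adjusted p = 0.148). In July/June it was -0.60 (SE 0.23, limma adjusted p = 0.474). April and July means were close, with a log2FC of -0.05 and an interval of -0.52 to 0.42. Without April replicate 2 the June/April value was 0.73 (limma, Benjamini-Hochberg adjusted p = 0.0108), with each tree centred on its median it was 0.61 (adjusted p = 0.144, same test), and under quantile normalization between trees it was 0.02 (adjusted p = 0.934). The sum of linear values over all loci was 40769766 in April replicate 2 and 38964031 to 43427861 in June, against 30992417 to 32740071 in the other April trees and 36654817 to 40330886 in July. The part of these sums in the difference was not tested.

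ABCG1 (LOC112015809), whose Arabidopsis counterpart exports suberin precursors in the root, had the largest June/April log2FC of the 6. Its April trees were at 14.34, 14.69, 12.43 and 13.76, its June trees at 15.12, 15.28 and 15.02, and its July trees at 12.72, 14.24, 14.30 and 13.77. The June trees were the 3 highest of the 11, close together, and the months on either side each held a tree below 12.8. The log2FC was 1.33 in June/April (2.52-fold, SE 0.51, 95% interval 0.19 to 2.48, limma, Benjamini-Hochberg adjusted p = 0.122) and -1.38 in July/June (SE 0.51, interval -2.52 to -0.24, adjusted p = 0.464). For July/April it was -0.05 with an interval of -1.10 to 1.01. Leaving out April replicate 3, the lowest April tree, gave 0.88 in June/April (limma, Benjamini-Hochberg adjusted p = 0.212), and leaving out April replicate 2 gave 1.63 (adjusted p = 0.0506). Over all 24 alternative settings this adjusted p ran from 0.0350 to 0.248.

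ABCG32 (LOC112006106), the full-size member and a cutin precursor transporter in Arabidopsis, had a June/April difference of similar size to that of ABCG2. It stood at 14.47, 13.78, 14.65 and 14.47 in April, at 14.97, 14.70 and 14.82 in June and at 14.06, 14.10, 14.57 and 14.68 in July. Here too the June trees were the 3 highest, although the lowest of them was only just above the highest April and July trees. The log2FC of June against April was 0.49 (SE 0.23, interval -0.01 to 0.99, limma, Benjamini-Hochberg adjusted p = 0.187), that of July against April 0.01 and that of July against June -0.48 (adjusted p = 0.591). Over all 24 alternative settings the June/April value of ABCG32 ran from 0.155 to 0.590. Its limma adjusted p ran from 0.113 to 0.783. Groups that did not overlap were thus found with June above April for 2 of 6 homologs (13.9% of all loci tested) and with July below June for 3 of 6 (5.58%), the third being ABCG2. Between July and April they overlapped for all 6, while 17.5% of all loci tested had groups that did not. In April replicate 2, ABCG32 was the lowest of the 11 trees and ABCG2 the highest of the April trees.

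ABCG16 (LOC112008981), a pollen wall transporter in Arabidopsis, was present at a mean rlog of 9.27 and varied widely within months. The April trees were at 9.14, 10.03, 8.07 and 9.80, the June trees at 9.25, 10.22 and 10.52, and the July trees at 7.33, 9.19, 9.48 and 8.999. The months overlapped in each comparison, and the lowest tree was July replicate 1. June minus April was 0.74 (SE 0.59, interval -0.56 to 2.05), July minus April -0.51 and July minus June -1.25 (SE 0.59, limma, Benjamini-Hochberg adjusted p = 0.588).

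**Figure D2:**
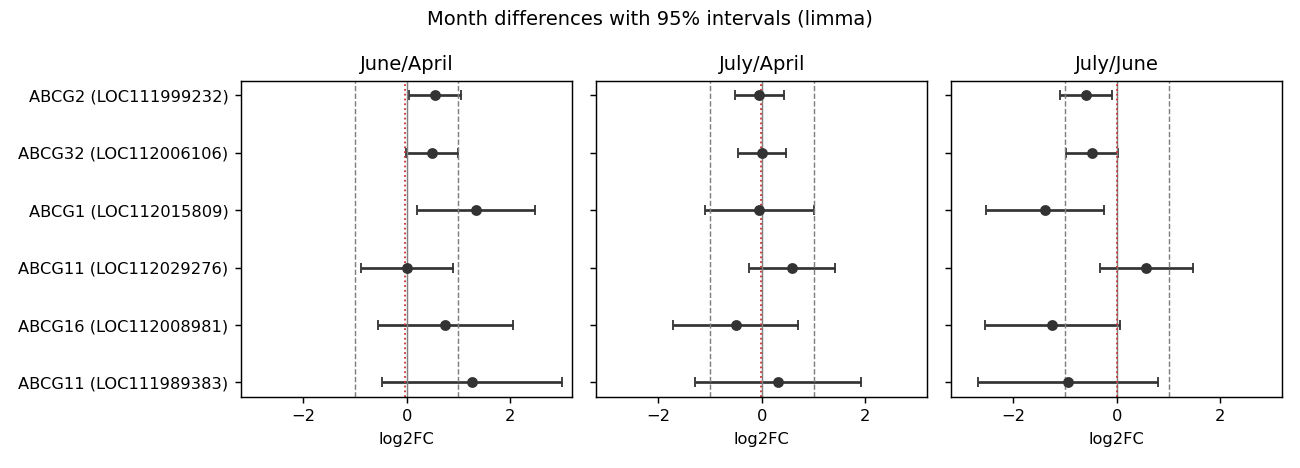
log2FC of the 6 tested ABCG homologs (points) with 95% intervals (bars) from limma in June/April, July/April and July/June. Dashed lines mark an absolute log2FC of 1 and the red dotted line the median of all loci tested; the June/April intervals of ABCG2 and ABCG1 lie above 0, and no homolog reached the adjusted threshold.

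ABCG11 was the only one of these transporters with several loci. In Arabidopsis its product pairs with itself or with other half-size members such as ABCG12, which had no locus here. Of the summed linear values of its 5 loci over all trees, LOC112029276 held 89.6% and LOC111989383 held 10.1%. The remaining loci held 0.194% (LOC112038306), 0.118% (LOC112001868) and 0.0315% (LOC112038307). These shares are not corrected for length, and they are uncertain where reads of near-identical copies could have been split. LOC112038306 had rlog values from 1.90 to 2.93, LOC112001868 from 1.31 to 1.53 and LOC112038307 from -0.55 to -0.31, all under the minimum level. For LOC112038306 and LOC112038307, which carry consecutive gene numbers in the deposited identifiers, the highest tree was June replicate 1 in both.

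The dominant copy LOC112029276 was the homolog of the 6 with a higher mean in July than in June. It stood at 11.18, 10.05, 10.27 and 10.998 in April, at 9.89, 10.90 and 11.10 in June and at 11.74, 10.76, 11.69 and 10.62 in July. The months overlapped, and the lowest of all trees was June replicate 1. Its log2FC of June against April was 0.01, with an SE of 0.40 and an interval of -0.89 to 0.90. July exceeded April by 0.58 (SE 0.37, adjusted p = 0.330) and June by 0.57 (SE 0.40, adjusted p = 0.751, both limma with Benjamini-Hochberg). The sign of the June/April value changed in 8 of 24 alternative settings.

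The second copy LOC111989383 had the widest spread of the 6. Its values were 8.57, 5.70, 5.75 and 7.67 in April, 6.51, 9.23 and 8.82 in June and 7.38, 7.32, 7.40 and 6.86 in July. April and June each held low and high trees, while the July trees were close together. June exceeded April by a log2FC of 1.26, with an SE of 0.78 and an interval of -0.47 to 3.00 (limma, Benjamini-Hochberg adjusted p = 0.315). July minus April was 0.32, and July minus June -0.95 (adjusted p = 0.797).

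LOC112029276 was the higher copy in every tree. Its share of the 5 loci was 85.8, 94.7, 95.3 and 90.7% in the April trees, 90.3, 75.9 and 82.7% in June and 95.2, 91.2, 94.9 and 92.7% in July. All July trees lay above all June trees, and June overlapped April. The share was 91.6% ± 4.40 (SD, n = 4) in April, 83.0% ± 7.21 (n = 3) in June and 93.5% ± 1.88 (n = 4) in July. June was 8.65 percentage points below April, a difference of -8.65 (two-sided exact permutation p = 0.114, 0.171 after adjustment over the 3 comparisons). July was 10.6 points above June (exact permutation p = 0.0571, adjusted 0.171), which is the smallest p possible with 4 and 3 trees,, and July was 1.90 points above April (exact permutation p = 0.457).

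**Figure D3:**
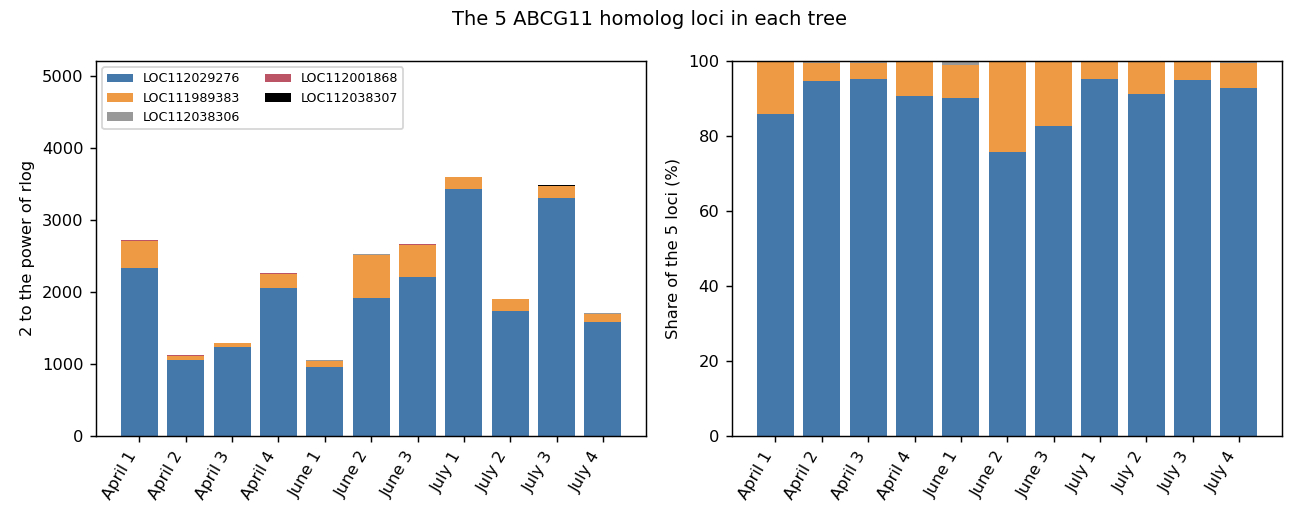
The 5 ABCG11 loci in each of the 11 trees, as stacked bars of 2 to the power of rlog (left) and as shares in % of their sum (right). LOC112029276 holds between 75.9 and 95.3% in every tree, and LOC111989383 its largest share, 23.9%, in June replicate 2.

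Whether the dominant ABCG11 copy differed from the other homologs in its change between months was tested on the within-tree differences of rlog. This comparison was chosen after the values were seen. In July/June its change exceeded that of ABCG1 by 1.95, that of ABCG16 by 1.82 and that of the second ABCG11 copy by 1.52 on the log2 scale. In each of these 3 cases the July and June trees did not overlap (exact permutation p = 0.0571, the smallest possible). Against ABCG2 and ABCG32 the excess was 1.17 and 1.05 (exact permutation p = 0.171 for both). After adjustment over all 15 tests no p was below 0.286.

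The homologs differed in how much trees of the same month varied. The residual SD after removing the month means was 0.268 for ABCG2 and 0.312 for ABCG32. It was 0.757 for ABCG1, 0.593 and 1.15 for the dominant and second ABCG11 copies, and 0.868 for ABCG16. Compared with the 500 loci nearest in mean rlog, ABCG2 had a larger residual SD than 40.4% and ABCG32 than 60.9% of them. For ABCG1 that share was 98.1%, for ABCG16 95.2%, for the dominant ABCG11 copy 93.8% and for the second 89.8%. A month difference of ABCG1 of over 1 log2 unit and one of ABCG2 of 0.55 therefore came with similar adjusted p-values.

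Pairs of homologs were compared across the 11 trees, 15 pairs in all, chosen after the values were seen. ABCG1 and ABCG2 had a Pearson r of 0.845 (permutation p = 0.00075, 0.0112 after Benjamini-Hochberg adjustment) and a Spearman rho of 0.818 (permutation p = 0.00321, adjusted 0.0481). Without the 2 trees farthest from the median of ABCG2 the r was 0.853, and with values centred per month it was 0.690. With each tree centred on its median the r was 0.840 (permutation p = 0.001), and under quantile normalization, which also took the June/April value of ABCG2 itself to 0.02, it was 0.532 (permutation p = 0.0809).

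ABCG1 and ABCG16, both of the pollen wall in Arabidopsis, had an r of 0.842 (permutation p = 0.00155, adjusted 0.0116) and a rho of 0.727 (permutation p = 0.0140, adjusted 0.0700). The r was 0.817 with values centred per month and 0.870 under quantile normalization, but 0.546 without April replicate 3 and July replicate 1, the trees lowest in both genes. The relation thus rested in large part on those 2 trees. The ABCG11 copies had an r of 0.594 (permutation p = 0.0538, adjusted 0.202) and a rho of 0.682 (permutation p = 0.0247, adjusted 0.0925), and 0.821 when centred per month. ABCG2 and ABCG32 had an r of 0.15 (permutation p = 0.654, adjusted 0.754). It was 0.565 without April replicate 2, but -0.610 with values centred per month, so that no direction can be given for this pair.

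The export of suberin monomers follows their synthesis, so the homologs were also set against the suberin synthesis homologs, a comparison chosen after the values were seen. Of their 21 loci 16 were tested. None was called in any comparison (limma), and at an unadjusted p under 0.05 there were 6 in June/April (28.3% of all loci tested), 4 in July/April (2 higher and 2 lower, against 30.0%) and 4 in July/June (8.93%). Their median log2FC was 0.52 for June against April, 0.04 for July against April and -0.58 for July against June, and the mean was higher in June than in April for 14 of 16 (48.0% of all loci tested) and higher in July than in June for 1 of 16 (50.0%). For each of the 10 synthesis genes with a locus, the locus with the highest mean was taken: KCS1 and KCS2 (chain elongation), CYP86A1 and CYP86B1 (hydroxylation of fatty acids), FAR4 (fatty alcohols), GPAT5 (acyl transfer to glycerol), ASFT (feruloyl transfer), and GELP38, GELP51 and GELP96 (GDSL lipases of suberin polymerization). Their mean rlog was 15.63, 16.33, 15.59 and 15.82 in the April trees, 16.54, 16.42 and 16.25 in June and 15.58, 15.95, 15.87 and 15.99 in July. As in ABCG2, April replicate 2 lay among the June trees.

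Across the 11 trees, ABCG2 had an r of 0.979 with this mean (permutation p = 1e-05, the smallest that the permutations can give, 6e-05 after adjustment over 6 homologs) and a rho of 0.918 (permutation p = 0.00025, adjusted 0.0015). The r was 0.960 without June replicates 1 and 2, the trees farthest from the median of the suberin mean, and 0.956 with values centred per month. It was 0.979 without April replicate 2 and 0.993 without July replicate 4. With each tree centred on its median it was 0.982, and under quantile normalization it was 0.762 (permutation p = 0.00804). ABCG2 also had an r of 0.791 with the log2 of each tree's sum of linear values over all loci. The part of these sums in the relation was not tested, and the share of all loci with as high an r was not determined. By single gene, the r of ABCG2 was highest with ASFT (0.926), KCS2 (0.920) and KCS1 (0.920) and lowest with FAR4 (0.0187). The 3 loci most like ABCG2 among all loci tested, named below and not of the suberin list, had r values of 0.941 to 0.969 with it.

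ABCG1 had an r of 0.844 with the suberin mean (permutation p = 0.00086, adjusted 0.00258, rho 0.845), 0.776 without the same 2 trees, 0.684 centred per month and 0.716 under quantile normalization. ABCG16 had an r of 0.690 (permutation p = 0.0161, adjusted 0.0323) and a rho of 0.673 (permutation p = 0.0272, adjusted 0.0544), with 0.803 without the same 2 trees and 0.579 centred per month. For ABCG32 the r was 0.272 (permutation p = 0.413) and its sign was not stable. It was 0.657 without April replicate 2 (permutation p = 0.0385, not adjusted), -0.138 without the same 2 June trees and -0.413 centred per month. The ABCG11 copies had -0.520 (dominant, permutation p = 0.103) and 0.0798 (second, permutation p = 0.814). With centring per month they were at -0.631 and -0.456, and without the same 2 trees at -0.394 and -0.0422. Under quantile normalization the dominant copy was at -0.609 (permutation p = 0.0434, not adjusted).

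**Figure D4:**
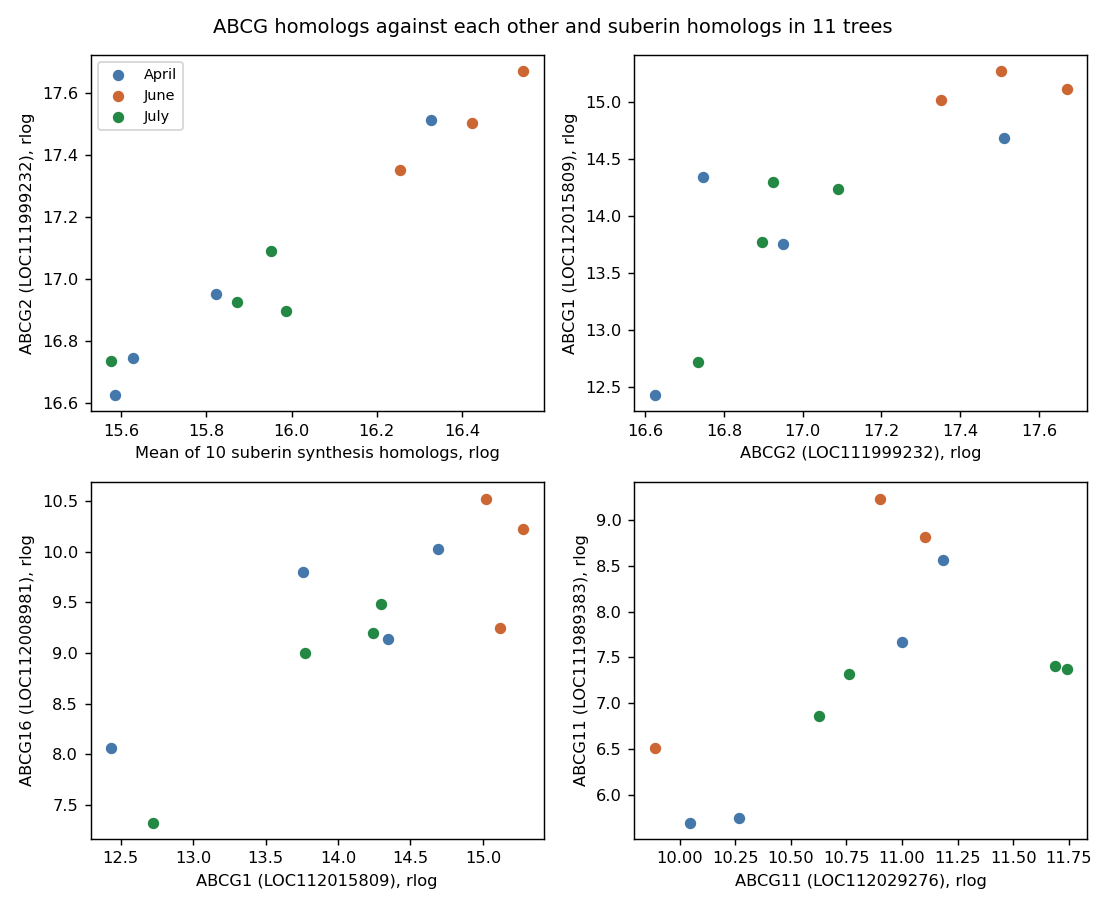
rlog of ABCG homologs against each other and, in the first panel, ABCG2 against the mean rlog of 10 suberin synthesis homologs; each point is 1 of 11 trees, coloured by month. In the first panel (r of 0.979) April replicate 2 lies with the June trees, and in the third (ABCG1 and ABCG16, r of 0.842) April replicate 3 and July replicate 1 lie apart at the lower left.

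Among 7 tested loci of lipid transfer proteins, which carry wax and suberin lipids outside the cell, none was called by limma in any comparison. At an unadjusted p under 0.05 there were 0 in June/April (28.3% of all loci tested) and 1, higher, in July/April (30.0%). In July/June there were 2, of which 1 was higher and 1 lower (8.93%). Their median log2FC was -0.11 for June against April, -0.20 for July against April and -0.31 for July against June. Of 7 tested loci of suberin regulators (medians 0.29, 0.21 and -0.24) 1 was called, in July/April, where 2.04% of all loci tested were called. This was a MYB9 homolog (LOC112034724) that fell by 2.61 on the log2 scale from April to July (limma, Benjamini-Hochberg adjusted p = 0.00643). The other MYB9 homolog (LOC112006609) had a higher mean rlog, 13.59 against 9.99, and log2FC values of 0.48 in June/April (limma adjusted p = 0.0444, Benjamini-Hochberg) and 0.12 in July/April (adjusted p = 0.542). In the cutin and wax list (medians 0.47, -0.01 and -0.44) 1 of 8 tested loci was called. It was called in June/April (1.46% of all loci tested) and in July/April (2.04%). This was SHN1 (LOC112002896), an activator of cutin genes, which rose from April to June by 1.91 on the log2 scale (limma adjusted p = 0.00703, Benjamini-Hochberg) and from April to July by 2.03 (adjusted p = 0.00294). These loci were named after their values were seen. ABCG32 and the dominant ABCG11 copy, cutin transporters in Arabidopsis, had July/April values of 0.01 and 0.58 that did not pass the test.

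By the root mean square difference of rlog values centred per locus over the 11 trees, the loci most like ABCG2 were LOC111992527 (AT5G14285, 0.117), LOC111999311 (AT1G70140, 0.124) and LOC111992500 (AT5G40760, 0.125). For ABCG32 they were LOC112017540 (AT5G42870, 0.137), LOC112037839 (AT1G56560, 0.148) and LOC112030733 (AT4G13780, 0.154), and for the dominant ABCG11 copy LOC112012754 (AT1G61560, 0.241), LOC112026448 (AT1G68570, 0.274) and LOC112032309 (AT2G32990, 0.276). The r of the nearest locus was 0.949 for ABCG2, 0.929 for ABCG32 and 0.909 for the dominant ABCG11 copy. It was 0.933 for ABCG1 and 0.855 for ABCG16. In root mean square difference, which grows with the spread of a locus, no locus came as close to the more variable homologs. Those nearest to ABCG1 were LOC111993045 (AT1G28710, 0.463), LOC112017906 (AT2G30900, 0.479) and LOC112041009 (AT4G38080, 0.496), and those nearest to ABCG16 were LOC111988790 (AT3G05950, 0.476), ABCG1 itself (0.498) and LOC112019064 (AT4G39230, 0.506).

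The rest of the ABCG subfamily, 34 Arabidopsis genes, had a locus for 20 genes and 54 loci in all, of which 36 were tested (12 half-size and 24 full-size). Of the 36, 1 was called in June/April (1.46% of all loci tested) and none in July/April (2.04%) or July/June (0.00446%). At an unadjusted p under 0.05 there were 6 higher and 4 lower in June than in April (28.3% of all loci tested, either direction). There were 4 higher and 4 lower in July than in April (30.0%), and 0 higher and 5 lower in July than in June (8.93%). Their median log2FC was 0.12, -0.07 and -0.13. The maximum on the linear scale fell in April for 15 of the 36 (42.5% of all loci tested), in June for 17 (29.0%) and in July for 4 (28.4%).

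The called locus was LOC112022466, a homolog of ABCG40, an importer of abscisic acid in Arabidopsis. Its rlog was 5.70, 5.57, 5.12 and 5.27 in April, 7.37, 7.29 and 6.54 in June and 5.78, 5.43, 6.22 and 6.18 in July. The June trees were the 3 highest, and from April to June it rose by 1.65 on the log2 scale (SE 0.28, limma adjusted p = 0.00786, Benjamini-Hochberg). In July/June the value was -1.17 (adjusted p = 0.281). The other tested ABCG40 loci were not called and went both ways in June/April. LOC112019839 (mean rlog 5.25) had a log2FC of 1.48. Lower in June were LOC111982983 (mean 10.97) at -0.51, LOC112000048 (7.88) at -0.77 and LOC112035473 (6.29) at -0.76. In 7 of the 11 fits that left out a tree, none of the 36 was called.

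In July/April the smallest p among the 36 was that of ABCG34 (LOC112009729), which exports the defence compound camalexin in Arabidopsis. It stood at 13.61, 13.53, 13.38 and 13.40 in April, at 12.79, 13.13 and 13.17 in June and at 12.67, 12.96, 13.03 and 12.30 in July. All April trees were above all others, and the July/April log2FC was -0.74 (SE 0.16, limma, Benjamini-Hochberg adjusted p = 0.0181). The other tested ABCG34 loci had lower mean rlog values and went both ways. LOC111996712 (mean 10.33) was at 0.51 and LOC111996737 (7.55) at 0.43 in July/April (limma adjusted p = 0.0723 and 0.167). LOC112009761 (4.25) was at -0.86 (limma adjusted p = 0.242). In July/June the smallest p was that of the half-size ABCG23 (LOC111988868), at 13.62, 13.47, 13.65 and 13.51 in April, 14.25, 14.40 and 14.13 in June and 13.34, 13.75, 13.76 and 13.62 in July. Its June trees were the 3 highest, above April by 0.70 on the log2 scale (SE 0.13, limma adjusted p = 0.0105, Benjamini-Hochberg), and July minus June was -0.64 (adjusted p = 0.256). An adjusted p of 0.05 or less in June/April, reached by 9.81% of all loci tested and by none of the 6 homologs, was also found for a further ABCG40 locus (LOC112019839, 1.48), ABCG36 (LOC112016946, 1.34) and ABCG10 (LOC111992190, 0.82), named after their values were seen.

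**Figure D5:**
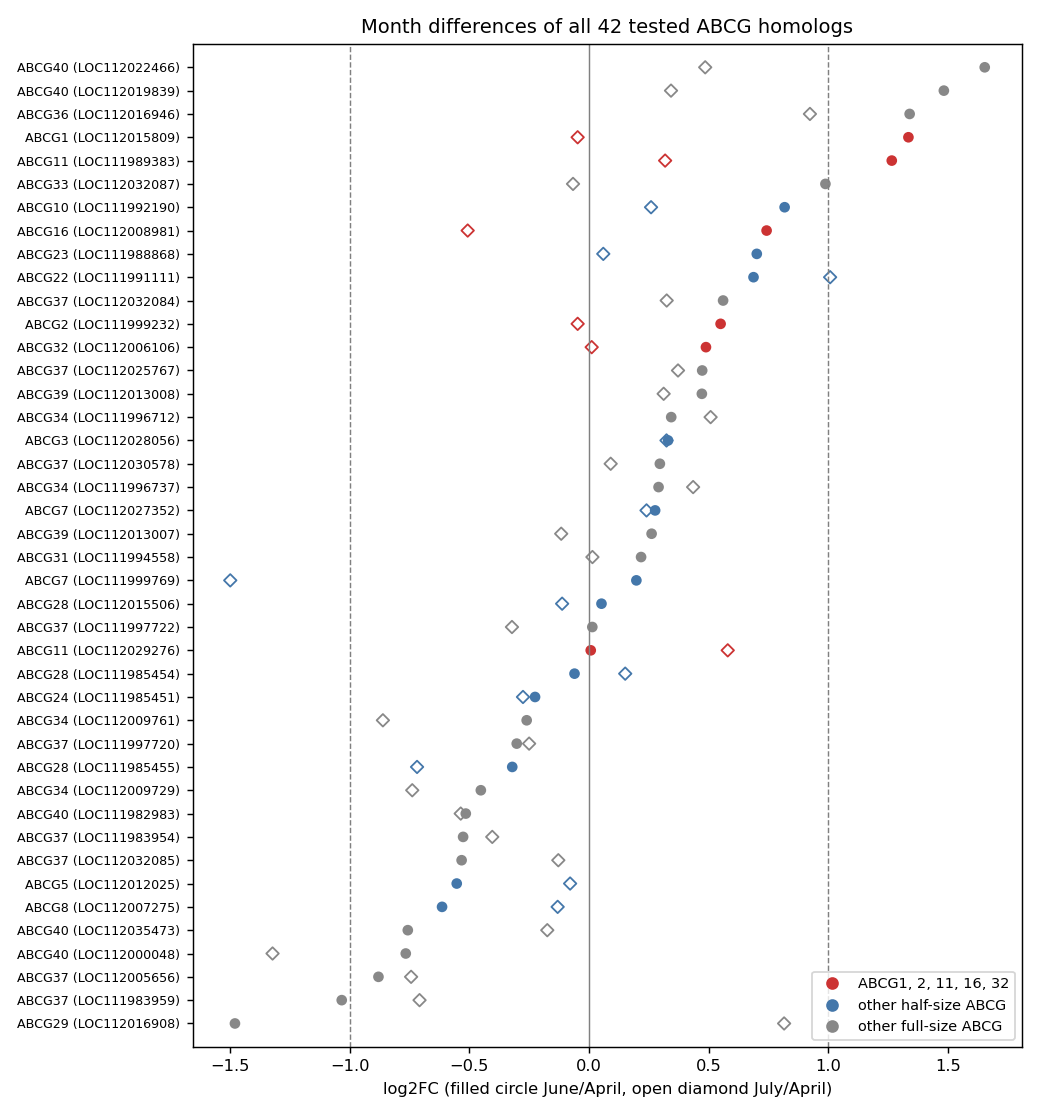
log2FC in June/April (filled circles) and July/April (open diamonds) of all 42 tested ABCG homologs, ordered by the June/April value, with dashed lines at an absolute log2FC of 1. The examined homologs (red) have June/April values from 0.01 to 1.33, and the called ABCG40 locus stands at the top with 1.65.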

How the data were processed

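RNA-seq of innercork from 11 trees was analysed. The authors trimmed adapters with Skewer, removed ribosomal reads with riboPicker, mapped reads to CorkOak1.0 with STAR 2.5.3a and deposited log2-scale rlog values from DESeq2 for 32024 loci, each with its best Arabidopsis match. Columns were assigned to trees by their labels. The authors report the total of reads over the 11 trees. Read counts of each tree cannot be recovered from the rlog values, so its depth was not known here. The count tests of edgeR or DESeq2 were therefore not run. The 22426 loci averaging log2 of 10 or more were fitted in R 4.3.3 with limma 3.58.1: month as factor, variance trend, 2.38 prior degrees of freedom. The fit was tested on simulated data. Shares used exact permutation tests and correlations 100000 permutations (Python 3.11.15). rlog shrinks loci with few reads, so log2FC understates their change.

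The members and gene lists were chosen with earlier results of these data known. Named were all homologs of the 9 transporters, the 3 loci most like each homolog's highest locus, with an SD of at least 0.5 times its own, called loci of the other ABCG lists or else the smallest p per comparison, and the highest locus of each suberin gene. Replicates are separate trees. The RefSeq gene table of Cork oak 2.0, another assembly, gave biotypes only: 6 of the 9 homologs matched by name, all protein-coding. Alternatives covered the minimum level, pseudocount, normalization, variance prior, tree weights, samples fitted, replicate block, threshold and leaving out each tree.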

Additional observations from a re-analysis of the deposited data

Results flagged for a closer look

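In 1 of the 12 groups of 4 trees examined for the 6 homologs, a tree lay far from the others. The second ABCG11 copy (LOC111989383) had an rlog of 6.86 in July replicate 4, while the other July trees stood between 7.32 and 7.40. The gap to the nearest tree was 0.841 of the whole range, above the critical value of 0.829. Chance flags about 1 in 20 such groups. The same tree had 14.7% of its linear values in ribosomal RNA loci, and the part of this in its lower value was not tested.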

How the results depend on the processing

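None of the 6 homologs was called in any of 24 alternative settings. The direction was kept in all 24 by 5 of 6 homologs in June/April, 2 of 6 in July/April and 6 of 6 in July/June, and where it changed the cause was not tested. The June/April log2FC of the dominant ABCG11 copy was -0.0797 under quantile normalization and -0.20 with tree weights, where the lowest weights were those of April replicate 2 (0.260) and July replicate 4 (0.397). In July/April the tree weights gave 0.11 for ABCG2, -0.16 for ABCG32, 0.20 for ABCG1 and -0.15 for the second ABCG11 copy, and quantile normalization gave -0.14 for ABCG32. With single trees left out, the dominant ABCG11 copy ran from -0.23 to 0.38 in June/April (negative without April replicate 2 or 3 or June replicate 2 or 3). In July/April the ranges were -0.16 to 0.14 for ABCG2, -0.18 to 0.11 for ABCG32, -0.50 to 0.30 for ABCG1 and -0.0891 to 0.87 for the second ABCG11 copy, each with the opposite sign without April replicate 2 (and without July replicate 1 for ABCG2, July replicate 3 or 4 for ABCG32, April replicate 1 or July replicate 1 for ABCG1 and April replicate 3 for the second copy). The share of the dominant ABCG11 copy ran from -12.3 to -5.11 points in June/April, 7.01 to 14.2 in July/June and -0.0423 to 3.13 in July/April, negative without April replicate 1. Of the relations across trees, whose alternatives were chosen after seeing the data, none changed sign with each tree centred on its median. The r of ABCG32 with the dominant ABCG11 copy changed sign under quantile normalization (0.0821) and that with the second copy without April replicate 2 (-0.00099, against 0.346 without July replicate 4), and that one also without the 2 farthest trees (-0.0432). With values centred per month the sign changed for ABCG32 with ABCG2 (-0.610), ABCG1 (-0.298), ABCG16 (-0.152), the dominant ABCG11 copy (0.0417) and the suberin mean (-0.413), for the second ABCG11 copy with ABCG2 (-0.413) and the suberin mean (-0.456), and for the dominant copy with ABCG16 (0.0560). Without the 2 farthest trees it changed for the suberin mean with ABCG32 (-0.138) and with the second copy (-0.0422).

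The single call among the other ABCG homologs in June/April became 0 without a minimum level, with a minimum of log2 of 100 or with only the 2 months compared, 2 under quantile normalization or without the variance trend, 3 with tree weights, 5 at an adjusted p of 0.05 with no minimum log2FC (2 then in July/April), and 0 to 2 with a tree left out (0 without any of April replicates 1, 3 and 4, June replicates 1 and 2 and July replicates 1 and 3).

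Each tree was sampled once. Deviations of trees with the same replicate number had correlations of -0.0772 to 0.211 (median 0.0261, 10 pairs). Over the 30 other pairs they were -0.122 to 0.138 (median 0.00101). The highest of all pairs was July replicate 1 with June replicate 1, which share a number. With the number as a block the June/April log2FC of the dominant ABCG11 copy was -0.0269 (numbers of the titles) or -0.16 (numbers of the columns), the single call among the other ABCG homologs became 0 under both, and no homolog was called. Shares corrected for coding length were planned and not run, as no coding lengths were used here. The read depth of each tree, not known here, limits what can be said of the 3 lowest ABCG11 loci.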
